A study of Mus musculus with 82 samples.

Results

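BAF, the mammalian SWI/SNF complex, is a set of proteins that moves and evicts nucleosomes with energy from ATP and so opens promoters and enhancers for transcription. It is built around an ATPase, either Smarca4 (BRG1) or its paralog Smarca2 (BRM), on a core of Smarcc, Smarcd, Smarce1 and Smarcb1 proteins, and an Arid1a or Arid1b subunit defines the canonical form of the complex. In mouse embryonic stem (ES) cells the complex found on pluripotency genes is known for its Smarca4 ATPase and Arid1a, and Smarca4 and Smarcc1 are needed for self-renewal. Transcription of 7 genes of the complex was examined here, namely the ATPase gene Smarca4, the core genes Smarcc1, Smarcb1, Smarcd1 and Smarce1, and the ARID subunit genes Arid1a and Arid1b. They were taken by name and not by a measured value, though with earlier results of these data known, from the 24755 genes of the RefSeq GRCm38 annotation. Another 22 genes of BAF, PBAF (the form with Arid2 and Pbrm1) and non-canonical BAF (the form with Brd9) served as a comparison list.

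All samples were V6.5 mouse ES cells grown without drug or mutation in serum and leukaemia inhibitory factor on gelatin. In each assay, RNA polymerases in isolated nuclei added a propargyl-labelled nucleotide to the RNA being made, and a DNA tag was then attached to that RNA by click chemistry, so that a read marks the position of a transcribing polymerase. AGTuC did this in bulk nuclei with a high concentration of ionic detergent (2 libraries, both of experiment Exp125c), inAGTuC in intact nuclei pooled in wells (4 libraries, 2 of them of Exp208), and scGRO-seq in single intact nuclei sorted into 96-well plates, with 1 barcode per well (10 batches, named after the experiment number of the label). After the filters, 2512 cells in 35 scGRO-seq libraries remained, 92 to 812 cells per batch, with 1177 to 51431 unique molecular identifiers (UMIs, 1 per captured RNA molecule) per cell and 4626.5 on average. These 10 batches are those that the study names in its plot of reads per cell. In all, 14 batches had cells that passed the same filters (2814 cells in 40 libraries), and the further batches entered an alternative only. The labels do not say which libraries came from separate cultures, so p-values measure the spread between these libraries and batches, which may in part be technical. Exp125c held no library of the other assays, so a difference of AGTuC from them cannot be told apart from one between experiments. The 80 plate libraries carried 96 barcodes each in 3 distinct barcode sets, the commonest of which was used in 46 libraries, so a cell was identified by its library and barcode together.

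A sense read is one on the strand of the gene. The first 500 bp of the annotated span were counted as the promoter and the rest, without the last 500 bp, as the gene body, and a level is the number of sense body reads per kb of body per 1000000 sense body reads of all genes. Sense body reads of all genes numbered 1090160 and 2256025 in the AGTuC libraries, 255248 to 811210 in the inAGTuC libraries and 136599 to 2420120, with a median of 238285, in the scGRO-seq batches. Marker genes were checked against the label. Of 9 ES cell markers, including Pou5f1, Sox2 and Nanog, 8 had body reads in each assay and Dppa5a had none counted. Only spans of at least 2000 bp were used, without their first and last 500 bp, so a 0 need not mean a silent gene. The summed level of the 9 was 246 to 253 in AGTuC, 71.3 to 80.0 in inAGTuC and 41.8 to 126 in scGRO-seq. The 5 feeder fibroblast markers had a summed level of 0.669 to 1.28, 0.616 to 3.35 and 0.435 to 5.44. The 6 early lineage markers had 25.0 to 25.9, 3.47 to 9.22 and 2.27 to 14.6, with T at 0 in AGTuC. The part of other cells in the results was not tested, and in bulk libraries fewer cells with a transcript and less transcript per cell cannot be told apart.

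The spans of the genes in GRCm38 were chr9:21616169-21704230 for Smarca4, chr9:110132024-110240178 for Smarcc1, chr10:75896769-75921614 for Smarcb1, chr15:99702287-99713995 for Smarcd1, chr11:99209047-99231017 for Smarce1, chr4:133679008-133756769 for Arid1a and chr17:4995074-5347656 for Arid1b. Smarcb1, Smarce1 and Arid1a lie on the minus strand and the others on the plus strand. A gene on the opposite strand, Gm34939, overlaps Smarcd1, and the microRNA gene Mir7227 lies within Arid1a on its strand.

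One library stood apart. In the inAGTuC library Exp234_c11, antisense reads made up 53.3% of the body reads on the 7 genes, against 14.1% to 26.5% in the other 3 inAGTuC libraries and 12.7% to 36.9% in the scGRO-seq batches. The antisense shares and the calls of inAGTuC are therefore given with and without it.

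The promoters of the first 4 genes named above show the sequence around the annotated starts. The fullest bin of AGTuC reads began at the start in 3 of them and lay beyond the printed stretch in Smarca4. They run from 250 bases before the RefSeq start to 50 after it (GRCm38.p6, 5′ to 3′), and capitals mark a GC box (GGGCGG), an ETS site (CCGGAA), the core of an NRF1 site (GCGCATG) or a YY1 site (AAGATGG) on either strand.
Smarca4 (chr9:21615919-21616218, plus strand): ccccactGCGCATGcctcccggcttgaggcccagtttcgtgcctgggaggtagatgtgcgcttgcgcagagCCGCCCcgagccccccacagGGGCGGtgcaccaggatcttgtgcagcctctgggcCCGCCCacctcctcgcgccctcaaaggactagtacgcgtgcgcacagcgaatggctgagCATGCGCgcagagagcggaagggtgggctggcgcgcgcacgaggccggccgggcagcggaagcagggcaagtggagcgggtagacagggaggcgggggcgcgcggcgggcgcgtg
Smarcc1 (chr9:110131774-110132073, plus strand): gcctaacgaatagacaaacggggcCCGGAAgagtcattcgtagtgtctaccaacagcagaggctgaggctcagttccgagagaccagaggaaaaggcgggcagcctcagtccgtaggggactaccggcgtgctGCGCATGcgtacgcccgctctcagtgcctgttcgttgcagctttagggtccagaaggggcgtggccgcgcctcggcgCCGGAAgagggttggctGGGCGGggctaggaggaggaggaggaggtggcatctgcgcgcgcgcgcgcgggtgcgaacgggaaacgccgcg
Smarcb1 (chr10:75921565-75921864, minus strand): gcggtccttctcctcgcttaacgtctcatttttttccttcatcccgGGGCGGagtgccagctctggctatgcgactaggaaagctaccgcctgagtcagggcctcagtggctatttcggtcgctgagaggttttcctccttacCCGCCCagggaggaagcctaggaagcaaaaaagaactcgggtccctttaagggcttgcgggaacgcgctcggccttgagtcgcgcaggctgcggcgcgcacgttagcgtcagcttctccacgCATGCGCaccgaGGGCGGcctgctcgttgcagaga
Smarcd1 (chr15:99702037-99702336, plus strand): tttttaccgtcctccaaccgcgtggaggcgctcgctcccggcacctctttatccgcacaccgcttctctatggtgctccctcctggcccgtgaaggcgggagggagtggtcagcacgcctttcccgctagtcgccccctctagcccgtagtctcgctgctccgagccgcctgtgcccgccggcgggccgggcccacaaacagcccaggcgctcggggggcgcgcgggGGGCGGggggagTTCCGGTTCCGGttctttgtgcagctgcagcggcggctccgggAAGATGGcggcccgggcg

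A promoter entry was held for 6 of the 7 genes, all but Smarce1. All 6 held a GC box, the motif of SP/KLF factors, which occurred in 35.7% of the 32851 promoters of the same length. The NRF1 letters were found in Smarca4, Smarcc1 and Smarcb1 and in 3.91% of all promoters. The ETS site was found in Smarcc1, Smarcd1 and Arid1a and in 14.9% of all promoters. Smarcd1 alone of the 6 held the YY1 site, which 6.34% of all promoters held. None of the 6 held the letters CCAAT, present in 37.4% of all promoters, or TATAAA, present in 13.6%. Their CpG counts ran from 22 in Arid1a to 42 in Arid1b, against a median of 7 over all promoters. These are matches of letters in a window and say nothing of binding.

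Arid1a had the highest body level of the 7 genes in every assay, and Arid1b, its paralog and alternative in the complex, had the lowest mean level. Arid1a lay at 9.29 and 9.39 in the AGTuC libraries, at 3.42, 5.94, 3.86 and 8.61 in the inAGTuC libraries Exp208_c12, Exp208_c14, Exp234_c11 and Exp261_c16, and between 3.82 and 9.67 in the scGRO-seq batches, with a median of 5.19. Its mean of 9.34 in AGTuC was at percentile 94.1 of the 14767 genes tested. Arid1a was above the next gene in 2 of 2, 4 of 4 and 10 of 10 samples of the respective assay, so its place did not rest on a single sample. Arid1b lay at 1.25 and 1.39 in AGTuC, at 1.14 to 1.58 in inAGTuC and at 1.14 to 1.88 in scGRO-seq, with a median of 1.29. Arid1b was below the gene next above it in 2 of 2, 4 of 4 and 7 of 10 samples, with Smarce1 below it in the other scGRO-seq batches. The values of Arid1b overlapped across all 3 assays, and those of Arid1a overlapped between scGRO-seq and each of the other assays. The ratio of the mean level of Arid1a to that of Arid1b was 7.06 in AGTuC, 4.16 in inAGTuC and 4.26 in scGRO-seq.

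Between these lay the ATPase and the core genes. Smarcd1, which encodes the subunit BAF60A that links the complex to transcription factors, was at 8.39 and 6.04 in AGTuC and second in order there. It was at 2.195, 3.7004, 2.58 and 1.957 in inAGTuC and at 1.56 to 4.49, with a median of 2.82, in scGRO-seq. Both AGTuC values of Smarcd1 lay above all 14 values of the other assays. Such separation of AGTuC values, here and for the genes below, was not counted over all genes. Whether it is particular to these genes was therefore not tested. Smarcb1 (SNF5), the core subunit that contacts the nucleosome, had means of 3.93, 3.39 and 2.34 in AGTuC, inAGTuC and scGRO-seq, and its AGTuC values lay above all scGRO-seq values but overlapped those of inAGTuC. Smarce1 (BAF57), the HMG box subunit, had means of 3.402, 2.15 and 1.71. In the AGTuC libraries Smarce1 lay at 3.106 and 3.699, above its inAGTuC values of 1.78 to 2.52 and its scGRO-seq values of 1.05 to 2.46. Smarcc1 (BAF155), the scaffold of the core, had means of 3.32, 2.76 and 2.53, and its values overlapped between the assays. Smarca4 had 2.77, 2.10 and 2.38, with 2.71 and 2.84 in the AGTuC libraries and 1.79 to 2.87 in scGRO-seq, so these overlapped as well. Its inAGTuC values of 1.66 to 2.68 overlapped those of scGRO-seq but lay just below both AGTuC values. The middle order was not firm: in scGRO-seq Smarcd1 was above Smarcc1 in 6 of 10 batches, Smarcc1 above Smarca4 in 5 of 10 and Smarca4 above Smarcb1 in 5 of 10. In inAGTuC, Smarcc1 was above Smarcd1 and Smarce1 above Smarca4 in 2 of 4 libraries each, and in AGTuC Smarce1 was above Smarcc1 in 1 of 2.

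**Figure D1:**
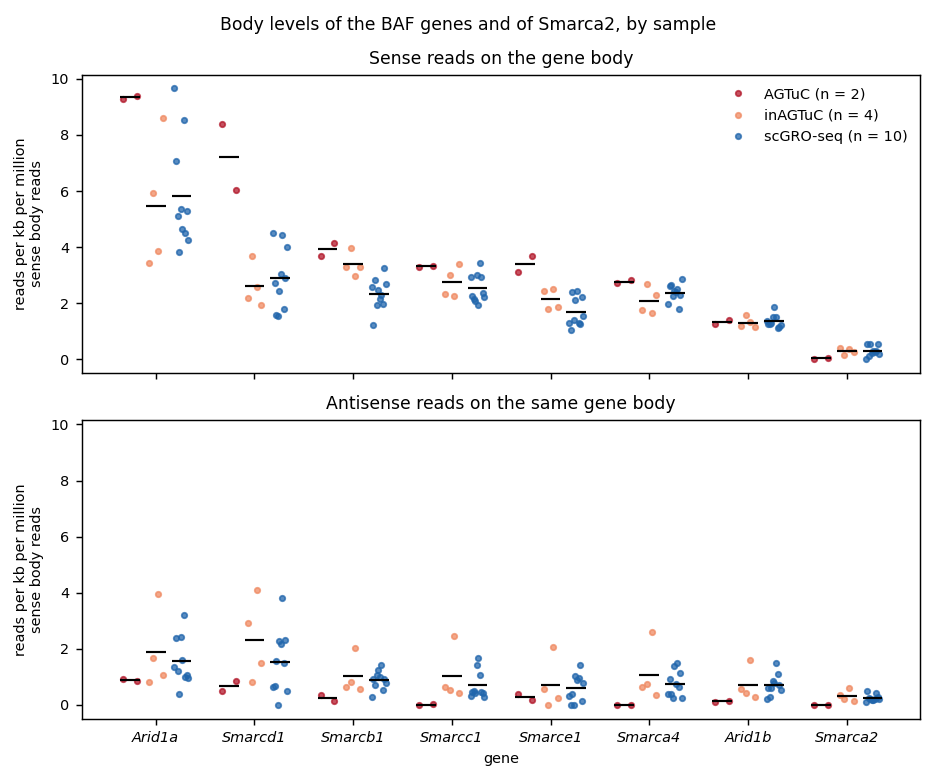
Body levels of the 7 BAF genes and of Smarca2 in reads per kb per 1000000 sense body reads, for sense reads (top) and antisense reads (bottom). Each point is 1 AGTuC library, inAGTuC library or scGRO-seq batch and the bar is the mean of the assay. The sense points of Arid1a lie highest in each assay, both AGTuC points of Smarcd1 lie above those of the other assays, and the antisense points of the AGTuC libraries lie near 0 for Smarca4 and Smarcc1.

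Smarca4 was transcribed above Smarca2, the alternative ATPase, in all 16 samples. Smarca2 had a mean level of 0.0392 in AGTuC, 0.301 in inAGTuC and 0.307 in scGRO-seq, and the ratio of Smarca4 to Smarca2 was 70.9, 6.98 and 7.76. The reads of Smarca2 in the single-nucleus and intact-nucleus assays were about as frequent on the opposite strand, with 246 sense and 213 antisense reads in scGRO-seq and 96 and 97 in inAGTuC (69 and 53 without Exp234_c11), against 24 and 6 in AGTuC. A gene annotated on the opposite strand, 4931403E22Rik, overlaps Smarca2. Smarcc1 exceeded Smarcc2 by a ratio of 1.44, 1.55 and 1.87 in AGTuC, inAGTuC and scGRO-seq, in 2 of 2, 3 of 4 and 10 of 10 samples. Smarcd1 exceeded Smarcd2 by 2.25 in AGTuC, in 2 of 2 libraries, and the ratio was 0.837 in inAGTuC and 1.36 in scGRO-seq, with Smarcd1 higher in 2 of 4 and 6 of 10 samples. Over Smarcd3, the form known from heart and neurons, the ratio was 3.44, 2.95 and 4.67, with Smarcd1 higher in every sample.

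Body levels were compared between assays by limma voom over 14767 genes, with Benjamini-Hochberg adjusted p-values. Against inAGTuC, AGTuC had a higher level of Smarcd1, by 1.31 on the log2 scale (SE 0.345, 2.47-fold, adjusted p = 0.00694). This was the 1 gene of 7 called higher, where 13.6% of all genes tested were called higher. Arid1a was higher by 0.73 (SE 0.353) and did not pass, at adjusted p = 0.116. The other 5 genes differed by -0.08 to 0.56 on the log2 scale and did not pass. With inAGTuC Exp261_c16 left out, in which Arid1a was highest, Arid1a passed as well at 1.104 and adjusted p = 0.00893. With AGTuC Exp125c_c01 left out, Smarcd1 was at 1.096 and did not pass, at adjusted p = 0.0757, and with the experiment as a random block it was at 1.12 with adjusted p = 0.0581. Without Exp234_c11 the count was 1, Smarcd1, and with every scGRO-seq batch that had cells left after the filters in the fit, 14 in place of 10, it was 0, with Smarcd1 at 1.21 and adjusted p = 0.0633.

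Against AGTuC, scGRO-seq had lower levels of Smarcd1, by 1.16 on the log2 scale (SE 0.285, 2.23-fold lower, adjusted p = 0.00264), and of Smarce1, whose log2 difference was -0.69 (SE 0.255, 1.62-fold lower, adjusted p = 0.0310). Thus 2 of 7 genes were called lower and none higher, where 22.8% of all genes tested were called lower. Smarcb1 and Arid1a, at -0.48 and -0.55, did not pass, and Smarca4 was at -0.01 with a 95% interval of -0.44 to 0.43. The call of Smarce1 was lost without the scGRO-seq batch Exp260b, at adjusted p = 0.0561, without either AGTuC library and with the experiment as a random block (adjusted p = 0.104), and that of Smarcd1 was lost without AGTuC Exp125c_c01, at adjusted p = 0.0634. With 14 scGRO-seq batches Smarcd1 was called and Smarce1 was not, at adjusted p = 0.0950. Smarce1 also did not pass with all deposited reads (adjusted p = 0.178), a mapping quality of at least 10 (0.0591) or no small RNA genes (0.0673). The body level of Smarce1 in AGTuC included 79 of its 246 body reads between 500 and 1000 bp, against 6 of 200 in scGRO-seq. With the body counted from 1000 bp, a step added after seeing the data, the difference of Smarce1 was -0.27 and did not pass (adjusted p = 0.430), while that of Smarcd1 was -1.29 and passed (adjusted p = 0.00281). Scaled to library totals in place of trimmed means of M values (TMM), 4 of 7 genes were called lower, where 4719 of all 14767 genes were. The median log2 difference of all genes moved by -0.25, with 38.3% of the calls higher against 50.0% under TMM.

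Between scGRO-seq and inAGTuC, both made from intact nuclei, limma called none of the 7 genes and none of all 14767 (0%). At an unadjusted p under 0.05 there were 717 genes and none of the 7. The log2 differences of scGRO-seq minus inAGTuC ran from -0.38 for Smarcb1 (95% interval -0.83 to 0.06) to 0.30 for Smarca4 (-0.08 to 0.68). For Smarcd1, the gene called in both comparisons with AGTuC, the difference was 0.15 with an interval of -0.46 to 0.76, and -0.048 with the experiment as a random block. Within Exp208, the experiment with libraries of both assays, the scGRO-seq level lay below both inAGTuC levels for 3 genes, Smarcc1, Smarcb1 and Smarcd1, and between them for the other 4. No test was made within Exp208, and these places were not counted over all genes.

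Of the 22 other BAF genes, 4 were called between AGTuC and inAGTuC, 2 in each direction, where 32% of all genes were called in either direction. Bcl7b and Actb, the latter encoding the actin of the complex and of the cytoskeleton, were higher in AGTuC by 1.80 and 1.66 on the log2 scale. Dpf3, a PHD finger subunit known from muscle, and Smarca2 fell by 3.67 and 2.85 in AGTuC. Between scGRO-seq and AGTuC, 10 of 22 were called, 3 higher and 7 lower in scGRO-seq. Over all genes 45.6% were called in either direction, 3361 higher and 3367 lower. Higher were Dpf3 at 3.48, Smarca2 at 2.83 and Actl6b, the neuronal actin-related subunit, whose fitted difference rests on 1 AGTuC read and is not given. Bcl7b was at -1.66, Smarcd3 at -1.53, Actb at -1.30 and Brd7, a bromodomain subunit of PBAF, at -1.01. Smarcc2, Smarcd2 and Arid2 were called in neither comparison. The 3 that were higher had few AGTuC reads, namely 1 for Actl6b, 26 for Dpf3 and 24 for Smarca2. Actl6b met the minimum of 50 body reads only through scGRO-seq (76 reads, against 13 in inAGTuC), and Smarcd3 only through AGTuC (58 reads, against 13 in inAGTuC and 20 in scGRO-seq). Each was higher in the assay that let it into the test, so neither call counts as support, though both are in the 10. Of the 76 scGRO-seq reads of Actl6b, 47 were in Exp260b, and without that batch the gene fell under the minimum of 50 reads and was not tested. Without AGTuC Exp125c_c02, none of the 4 calls against inAGTuC was kept, and against scGRO-seq 7 of 10 were lost, with Dpf3, Smarcd3 and Bcl7b kept. Without Exp125c_c01 the call of Actb was lost against inAGTuC, and those of Actb, Dpf2 and Bcl7a against scGRO-seq. With the body from 1000 bp, Actb was at 0.25 in AGTuC minus inAGTuC and 0.083 in scGRO-seq minus AGTuC and passed in neither. In scGRO-seq, Actl6b had 24 antisense reads, and antisense reads made up 46.6% of the body reads of Dpf3 and 46.4% of those of Smarca2. Between scGRO-seq and inAGTuC, none of the 22 was called, and none had an unadjusted p under 0.05.

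The antisense share also set AGTuC apart on the 7 genes themselves. It was 6.49% and 6.35% in the AGTuC libraries, below the lowest of the other 14 samples, the 12.7% of scGRO-seq Exp156. Over all genes the share was 16.6% in AGTuC, with medians of 28.8% in inAGTuC and 31.8% in scGRO-seq. On Smarca4, AGTuC had 2 antisense and 815 sense body reads (0.245% antisense), inAGTuC 167 and 370 (31.1%) and scGRO-seq 447 and 1053 (29.8%). Smarcc1 likewise had 6 antisense and 1192 sense reads in AGTuC (0.501%), against 24.1% in inAGTuC and 25.9% in scGRO-seq. Without Exp234_c11 the inAGTuC shares were 18.4% for Smarca4 and 13.8% for Smarcc1. Smarcd1, which the gene Gm34939 overlaps on the opposite strand, had 9.96%, 45.4% and 41.9%, and 37.9% in inAGTuC without Exp234_c11. Sense levels of inAGTuC and scGRO-seq were not corrected for antisense reads, and their part in the differences between assays was not tested.

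Reads of AGTuC gathered at the promoters of the BAF genes, and those of inAGTuC and scGRO-seq did so far less. Smarcd1 had 36.8% and 33.3% of its promoter and body reads in the first 500 bp in the AGTuC libraries, Smarcb1 19.3% and 20%, Smarca4 12.9% and 15.6%, Smarce1 15.5% and 11.6%, and Smarcc1 9.84% and 13.2%. The ARID genes were lower, at 3.24% and 3.33% for Arid1a and 1.64% and 1.95% for Arid1b. This order depends on the length of the gene, since a longer body holds more reads, and on the window. Per kb, promoter over body reads of the summed AGTuC libraries were 30.1 for Smarca4, 29.7 for Smarcc1 and 13.3 for Arid1b. The ratio was 11.8 for Smarcb1, 11.4 for Smarcd1, 6.14 for Smarce1 and 5.24 for Arid1a. In the first 1000 bp the shares were 40.5% and 40.9% for Smarce1, level with the 40.6% and 38.8% of Smarcd1, and 7.39% and 8.42% for Arid1b, above the 4.23% and 4.58% of Arid1a. In inAGTuC the shares of Smarca4 were 2.50%, 2.75%, 3.08% and 0.613%, and in scGRO-seq they ran from 0 to 3.85% with a median of 0.577%. Of the batches at 0, the deepest, Exp260b, had 0 of 147 reads of Smarca4, which allows a share of up to 2.04% from counting error alone. The AGTuC values of Smarca4, Smarcc1, Smarcd1, Arid1a and Arid1b lay above all those of the other assays, whereas single scGRO-seq batches with 12 reads or fewer of Smarcb1 or Smarce1 reached 25%. The share of all genes with AGTuC values above all others was not counted, so whether this separation is particular to the 7 was not tested. For Arid1b, inAGTuC had 0 of 888 reads in the promoter, which allows up to 0.338%. Over the 7 genes together, AGTuC had 8.73% and 8.94% of reads in the promoter, inAGTuC 0.417% to 2.92% and scGRO-seq 0 to 2.89%. The corresponding shares over all genes were 19.6% and 21.3%, 2.08% to 5.17% and 1.67% to 4.06%. None of these shares was corrected for gene length.

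**Figure D2:**
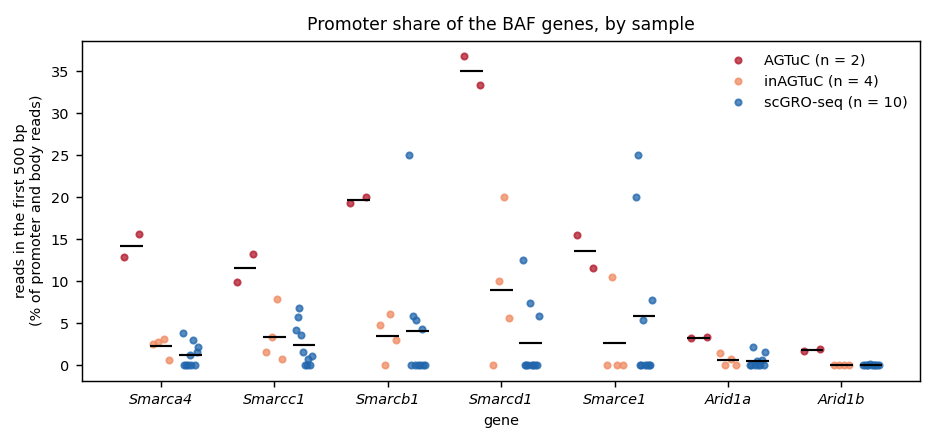
Share of promoter and body reads in the first 500 bp of each BAF gene, in percent, with 1 point per AGTuC library, inAGTuC library or scGRO-seq batch and the mean as a bar. The AGTuC points of Smarcd1 lie at 36.8% and 33.3%, and those of Arid1b at 1.64% and 1.95%. The scGRO-seq points of Smarcb1 and Smarce1 at 20% and 25% come from batches with 12 reads or fewer of the gene.

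The promoter share was tested by limma voom as the promoter reads against the body reads of each gene, over 11771 genes with a minimum of 10 promoter reads. Arid1b met that minimum through AGTuC alone and is kept apart from the counts here. The shares over all genes still include genes that met it in this way. Against inAGTuC, 3 of the 6 remaining genes had more promoter reads relative to the body in AGTuC, where 45.6% of all genes tested did. These were Arid1a at 2.80 (SE 1.04, adjusted p = 0.0249), Smarca4 at 2.68 (SE 1.03, adjusted p = 0.0289) and Smarcb1 at 2.64 (SE 1.04, adjusted p = 0.0324), all on the log2 scale. With a 250 bp promoter Arid1a alone was called, with Smarca4 at 1.36 (adjusted p = 0.272) and Smarcb1 at 2.45 (adjusted p = 0.0538). Smarcc1, Smarcd1 and Smarce1 were at 2.18, 2.11 and 2.16 and did not pass, at adjusted p of 0.0782, 0.0693 and 0.0844. Arid1b was called too (adjusted p = 0.0130). It had 30 promoter reads in AGTuC and none in inAGTuC, so its promoter reads per body read were at least 5.60-fold higher in AGTuC, taking 3 counts over the inAGTuC libraries as the floor. Its fitted difference depends on the prior count and is not given. Arid1a had 2 promoter reads in inAGTuC, which gives a 16.02-fold ratio of summed reads with an exact 95% interval of 4.30 to 134.5 from counting error. Against scGRO-seq, 4 of the 6 genes were called higher in AGTuC, where 48.3% of all genes were. Smarca4 was at 3.37 (SE 0.905, 10.4-fold, adjusted p = 0.00244), Smarcd1 at 2.74, Smarcc1 at 2.63 and Arid1a at 2.20. Arid1b was called as well and had 1 promoter read in scGRO-seq, which gives a ratio of 47.8 with an exact interval of 7.94 to 1949. Smarcb1 at 2.07 and Smarce1 at 1.03 did not pass.

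These counts rest on both AGTuC libraries. With either of them left out, none of the 7 genes was called against inAGTuC, and against scGRO-seq Smarca4 alone was called without Exp125c_c01 and none without Exp125c_c02, with a log2 difference of Smarca4 of 3.22 in the latter case. Without inAGTuC Exp234_c11, all of the 6 genes but Smarce1 were called against inAGTuC. Without Exp261_c16 Smarcb1 alone of the 6 was, and without Exp208_c14 Smarca4 and Smarce1 were. Arid1b, kept apart as above, was called in each of these settings. Of all genes, 35.7% were called without Exp261_c16, and the shares without Exp234_c11 or Exp208_c14 are not given. Against scGRO-seq, the call of Arid1a was lost without Exp156, Exp236, Exp260 or Exp263, at adjusted p from 0.0514 to 0.0636, with no filter on low counts (0.0580) and with a mapping quality of at least 10 (0.0811), and Smarcb1 passed without Exp156 or Exp160 or without inAGTuC Exp234_c11 or Exp261_c16, at 0.0249, 0.0402, 0.0381 and 0.0417. With 14 scGRO-seq batches in the fit, none of the 7 genes was called in either comparison, and 2955 and 1393 of all genes were.

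Between inAGTuC and scGRO-seq, none of the 7 and none of all 11771 genes was called (0%), while 583 genes and none of the 7 had an unadjusted p under 0.05. The differences of the 7 genes in inAGTuC minus scGRO-seq ran from -1.13 for Smarce1 to 0.69 for Smarca4, with 95% intervals of -2.58 to 0.33 and -0.73 to 2.11.

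Of the 17 other BAF genes tested for the promoter share, 9 were called higher in AGTuC than in inAGTuC and 11 higher than in scGRO-seq, beside 45.6% and 48.3% of all genes. Without the AGTuC reads, 7 of the 17 would not have met the minimum of promoter reads, among them Smarcc2, Smarcd2, Phf10, Dpf1 and Bcl7c. AGTuC itself let these genes into the test, so their calls do not count as support for a higher share in AGTuC. The shares over all genes hold such genes as well. Against both inAGTuC and scGRO-seq, Ss18, which encodes the SS18 subunit known from synovial sarcoma fusions, was highest, at 4.79 and 4.68 on the log2 scale. Pbrm1, the polybromo subunit of PBAF, was at 4.20 and 4.05, Bcl7c at 3.77 and 3.15 and Phf10 at 3.44 and 2.71. Brd9 was at 3.53 against inAGTuC and Dpf1 at 2.83 against scGRO-seq. Bcl7c, Phf10 and Brd9 had 2 or 3 promoter reads in inAGTuC, and Bcl7c, Dpf1 and Smarcd2 in scGRO-seq. Of the paralogs, Smarcc2 was called in both, at least 13.97-fold higher against inAGTuC, where it had no promoter read, and at 2.53 on the log2 scale against scGRO-seq, and Smarcd2 against scGRO-seq, at 2.29. Both paralogs are among the genes that met the minimum only with the AGTuC reads.

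The position of the AGTuC peak differed from gene to gene, and for Smarce1 and Arid1b it lay outside the 500 bp window. In bins of 100 bp counted from the start of the span, the fullest bin of the 2 AGTuC libraries together was the first for Smarcc1 (83 reads), Smarcd1 (78), Smarcb1 (60) and Arid1a (41). For Smarca4 it was the bin from 400 to 499 bp, in an intron, with 70 reads. For Smarce1 it was the bin from 600 to 699 bp with 47 reads, and for Arid1b that from 900 to 999 bp with 62 reads. With the first 1000 bp as the promoter, Smarce1 was called against both other assays, at 2.66 against inAGTuC (adjusted p = 0.0246) and 2.58 against scGRO-seq (adjusted p = 0.00960). Arid1a had 440 AGTuC reads from 2000 to 5000 bp, 147 per kb, against 29 reads from 500 to 1000 bp. A second annotated start of Arid1a lies 2784 bp after the first, and the fullest bin of this stretch, starting at 2500 bp, lies before it. These 440 reads count toward the 2403 AGTuC body reads of Arid1a on which its level rests.

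**Figure D3:**
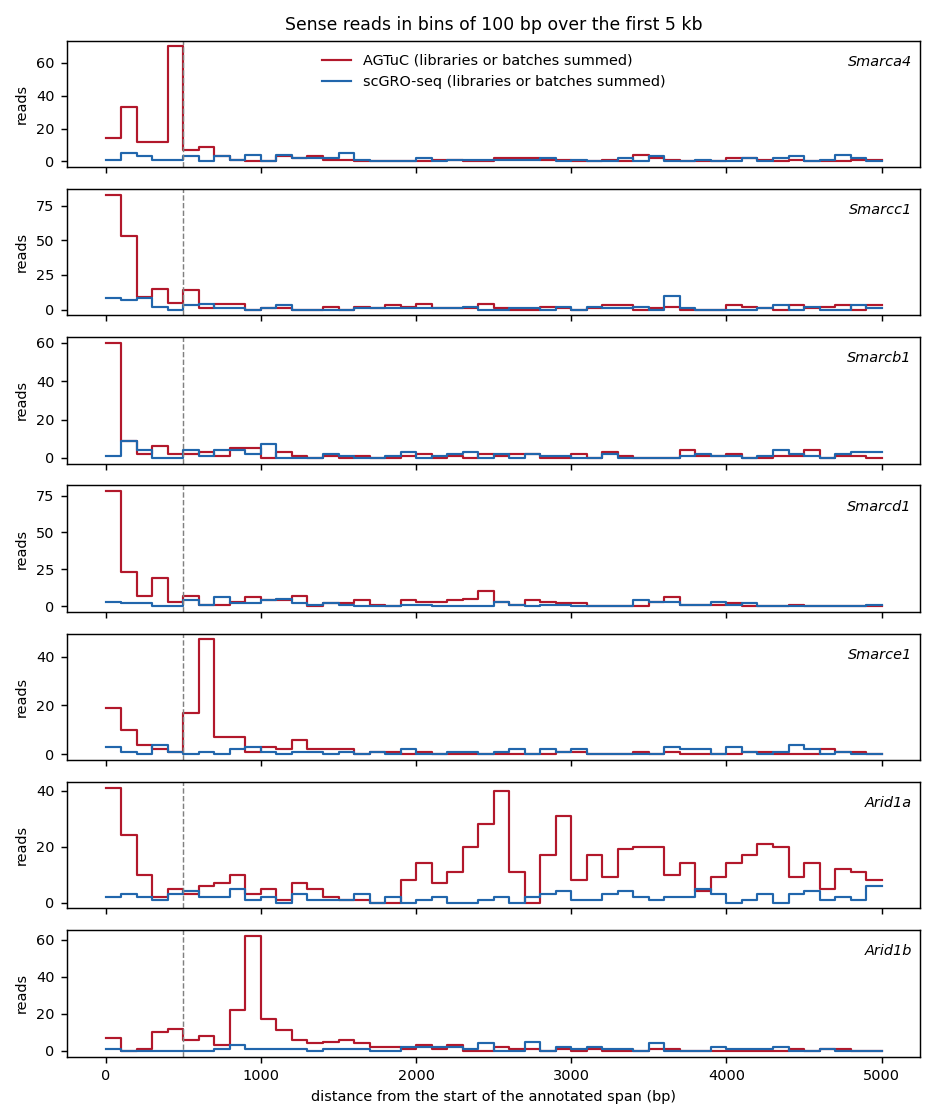
Sense reads in bins of 100 bp over the first 5 kb of each BAF gene, summed over the 2 AGTuC libraries or the 10 scGRO-seq batches, with the 500 bp limit dashed. AGTuC reads peak in the first bin for Smarcc1, Smarcb1 and Smarcd1, later for Smarca4, Smarce1 and Arid1b, and rise again after 2 kb in Arid1a, while the scGRO-seq line has no bin near those heights.

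Upstream antisense transcription, the divergent output of active promoters, was also read by AGTuC. In the 500 bp before the start, the opposite strand held 105 AGTuC reads for Smarca4, 67 for Smarcc1, 52 for Arid1b, 40 for Smarcd1, 28 for Arid1a, 24 for Smarcb1 and 17 for Smarce1. The same windows held 0 to 2 reads in inAGTuC and 1 to 6 in scGRO-seq. On the 7 genes, scGRO-seq had more body reads than AGTuC (7837 against 6805) and inAGTuC had fewer (3107). These windows were not counted over all genes, so whether the difference is particular to the 7 was not tested. No gene start on the opposite strand was annotated within 1500 bp.

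Within the body, exons and introns differed as well. Smarca4 had 18.2% of its scGRO-seq body reads in exons (95% Wilson interval 16.02 to 20.7%) against 8.83% in AGTuC (7.07 to 10.98%), where exons make up 6.60% of the body length. Smarcc1, Smarcb1 and Smarcd1 had 10.2%, 10.2% and 43.6% in scGRO-seq against 5.20%, 4.06% and 25.8% in AGTuC, and Arid1a had 20.9% against 17.4%. Smarce1 and Arid1b went the other way, with 6.50% and 4.04% in scGRO-seq against 16.3% and 11.7% in AGTuC. In inAGTuC the share lay on the same side of AGTuC as in scGRO-seq for 6 genes, at 15.7% for Smarca4 and 4.17% for Arid1b, while for Arid1a it lay on the other side, at 15.9% (13.7 to 18.3%, overlapping the AGTuC interval of 15.9 to 18.96%). The AGTuC peaks of Smarce1 and Arid1b, at 600 and 900 bp, lie in exons within the body as counted. The intervals of scGRO-seq and AGTuC did not overlap for any of the 7 genes. The same was not counted over all genes, so whether it is particular to these genes was not tested. The intervals cover counting error only, since libraries were summed.

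Among the scGRO-seq batches, the level of a gene was compared between experiments with the 35 plate libraries as replicates. Arid1a (limma F test, adjusted p = 0.0273) and Smarcc1 (adjusted p = 0.0396) differed between batches, 2 of 7 genes, where 29.4% of the 11721 genes tested did. Arid1a was highest in Exp156 at 9.67 and Exp260 at 8.52 and lowest in Exp211 at 3.82. Smarcc1 was highest in Exp260 at 3.43 and lowest in Exp246 at 1.92. Scaled to library totals, Smarcc1 did not pass, at adjusted p = 0.217, and Arid1a did. Of 21 other BAF genes, 8 were called.

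Part of the reads of Smarcc1 in 1 batch came from a single position. In Exp260b, 66 of 298 body reads of Smarcc1 (22.1%) lay on the same 4 bases, in an intron, in 62 cells of 6 libraries. The other 9 batches had 3 reads in that bin of 100 bp, inAGTuC 2 and AGTuC none. Arid1b had 32 reads on 4 bases of one of its introns, all in Exp260b (8.49% of its body reads there), in 31 cells of 6 libraries, with none in inAGTuC and AGTuC. Both bins are shown as the places where this batch departed from the others (GRCm38.p6, 5′ to 3′), with the 4 bases that held the reads in capitals.
Smarcc1 (chr9:110197824-110197923, plus strand): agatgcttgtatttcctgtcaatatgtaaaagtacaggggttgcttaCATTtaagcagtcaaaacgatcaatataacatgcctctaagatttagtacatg
Arid1b (chr17:5090374-5090473, plus strand): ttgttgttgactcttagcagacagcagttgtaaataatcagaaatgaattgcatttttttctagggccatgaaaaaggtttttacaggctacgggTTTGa

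The 4 bases are at chr9:110197871-110197874 in Smarcc1 and chr17:5090469-5090472 in Arid1b. Their reads were spread over cells, at about 1 per cell, and had a median mapping quality of 31 and 35. Smarcb1 had 8 of its 44 reads of Exp260b (18.2%) on 4 bases of an intron as well, in 8 cells. With the fullest bin of each of the 7 genes left out, a step added after seeing the data, Smarcc1 no longer passed the test between batches (adjusted p = 0.128) and Arid1a did. The source of these reads was not tested.

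**Figure D4:**
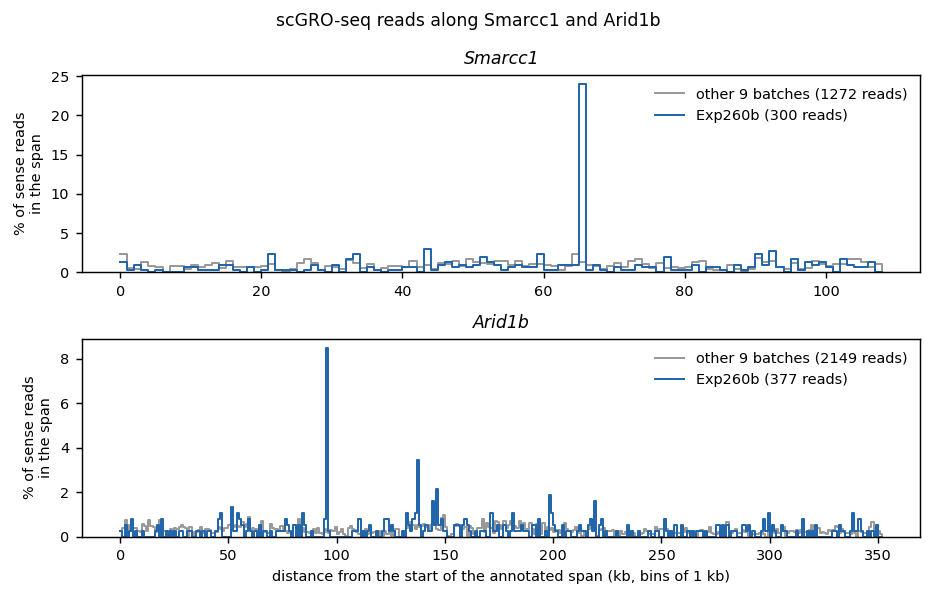
Share of the scGRO-seq sense reads of Smarcc1 and Arid1b in bins of 1 kb along the gene, in percent, for batch Exp260b and for the other 9 batches together. Exp260b has 1 bin of Smarcc1 near 65 kb and 1 of Arid1b near 95 kb that stand above the rest, where the other batches have none.

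In single cells, reads of the BAF genes were sparse but most cells had one. At least 1 sense body read was found in 54.3% of the 2512 cells for Arid1b (95% Wilson interval 52.4 to 56.3%), 50.2% for Arid1a (48.2 to 52.1%), 40.4% for Smarcc1 (38.5 to 42.4%) and 31.2% for Smarca4 (29.4 to 33.01%). The short core genes were found in fewer cells, namely Smarcb1 in 10.6%, Smarce1 in 7.25% and Smarcd1 in 5.29%. The order of these shares follows the number of body reads, from 2524 for Arid1b, the longest of the genes at 352.583 kb, to 140 for Smarcd1, the shortest at 11.709 kb. Smarcd1, which had the second mean level per kb of the 7 in scGRO-seq, was thus found in the fewest cells. Between batches the share ran from 35.1% to 62.4% for Arid1a and from 21.4% to 41.9% for Smarca4. Mean UMIs per cell in the lowest and the highest batch were 2166.2 (Exp156) and 6069 (Exp236) for Smarca4, and 6025 (Exp211) and 6069 (Exp236) for Arid1a. Smarca2, with a body of 172.162 kb, had a read in 9.08% of cells. Its 246 sense body reads stood beside 213 antisense ones, and whether a read marks transcription of Smarca2 in that cell was not tested. A cell without a read of a gene may still transcribe it, since these cells had 3.12 reads of all 7 genes on average.

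The 7 genes together were read in 2223 cells (88.5%). If the sense body reads of each library were assigned to its cells at random, with each cell keeping its number of reads, 2226 cells (88.6%) would be reached. Reads of exactly 2 of the genes were found in 732 cells, of 4 in 215, and of all 7 in 3.

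Bursts of transcription place several polymerases on a gene of 1 cell at once, so cells with 2 or more reads were compared with the same random assignment. The whole body was counted, up to 351.583 kb for Arid1b, so reads of different bursts can enter 1 count. The study used a 10 kb window and reported, over its genes together, more cases of several polymerases than in permuted reads. Whether the 7 genes burst was not tested. Arid1b had 2 or more reads in 598 cells where 603 were expected, Arid1a in 490 where 493 were expected, Smarcc1 in 329 where 329 were expected and Smarca4 in 195 where 193 were expected. Smarcb1 had 24 such cells against 22.6, Smarce1 16 against 13.2 and Smarcd1 6 against 5.33. The observed number was above the expected one in 4 of 7 genes and within rounding of it for Smarcc1, where it was above in 69% of the 11721 genes tested. The ratio was 0.991 to 1.01 for the 4 genes with over 1000 reads and 1.06 to 1.22 for the 3 with 140 to 294 reads. All genes showed the same split by read number, with a median ratio of 0.999 among the 887 genes with 1000 to 3000 reads and of 1.16 among the 9086 genes with 50 to 500 reads. In exact sign-flip tests over the 10 batches (two-sided, smallest possible p = 0.00195), none of the 7 genes and none of all genes tested (0%) passed at the adjusted threshold, and 846 genes and none of the 7 had an unadjusted p under 0.05. A call needed 458 genes at the smallest p, which 87 had, so a count of 0 says little.

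Reads of a cell lying close together on the gene entered these numbers. Neighbouring reads of 1 gene in 1 cell were within 50 bp in 46 cases for Arid1a, 41 of 1159 for Arid1b, 21 of 521 for Smarcc1, 19 of 270 for Smarca4 and 6 of 27 for Smarcb1. The same UMI was carried by 31 neighbouring pairs of Arid1a and by 17 of Arid1b. With reads within 50 bp counted once, Smarca4, Smarcc1, Smarcb1 and Smarcd1 were at ratios of 0.986, 0.991, 0.925 and 0.949. Near reads were removed from the cells, but the expected number still allowed reads within 50 bp in 1 cell. Observed and expected numbers are thus not on the same footing, and these ratios show no deficit. In the first 10 kb after the promoter, the window the study used for bursts, Smarca4 was at 0.722 and Arid1b at 1.205, and neither passed the test. From 5000 to 10000 bp, part of that window, scGRO-seq had 61 reads of Smarca4 and 34 of Arid1b, so these ratios rest on few cells.

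Whether subunits of 1 complex are transcribed in the same cells was asked of the 21 pairs of the 7 genes. Together the pairs had reads of both genes in a number of cells that was 0.983 of the number expected under the random assignment within libraries. Arid1a and Arid1b, the pair with most cells in common, were both read in 738 cells where 773 were expected. Smarcc1 and Arid1b were both read in 646 cells where 641 were expected, and Smarcc1 and Arid1a in 567 where 591 were expected. In the first 10 kb of the body all 3 lay on the other side of expectation, with ratios of 1.346, 0.791 and 1.26 in the same order. From 5000 to 10000 bp, part of that window, scGRO-seq had 34 reads of Arid1b, 37 of Smarcc1 and 188 of Arid1a. These ratios therefore rest on few cells, and their counting error was not assessed. The ratio ran from 0.703 for Smarcd1 and Smarce1, with 11 cells, to 1.096 for Smarcd1 and Arid1b, with 97 cells. The ATPase gene and the scaffold gene, Smarca4 and Smarcc1, shared 386 cells against 384 expected and were above expectation in 8 of 10 batches. This was the highest number of batches among the 21 pairs, picked after it was seen. The median was 4 batches for the 21 pairs and for all pairs of genes. How many of all pairs reached 8 was not counted. Of the 21 pairs, 7 (33.3%) were above expectation, where 39.2% of the 36069292 pairs of 8494 genes were, and the ratio of sums over all those pairs was 0.974. By batch, the ratio over the 21 pairs ran from 0.852 in Exp211 to 1.102 in Exp260 (mean 0.995 ± 0.0817, SD, n = 10), above 1 in 4 of 10 batches. With near reads counted once the ratio was 1.01. Pairs share their genes, so they are not independent, and no p is given.

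**Figure D5:**
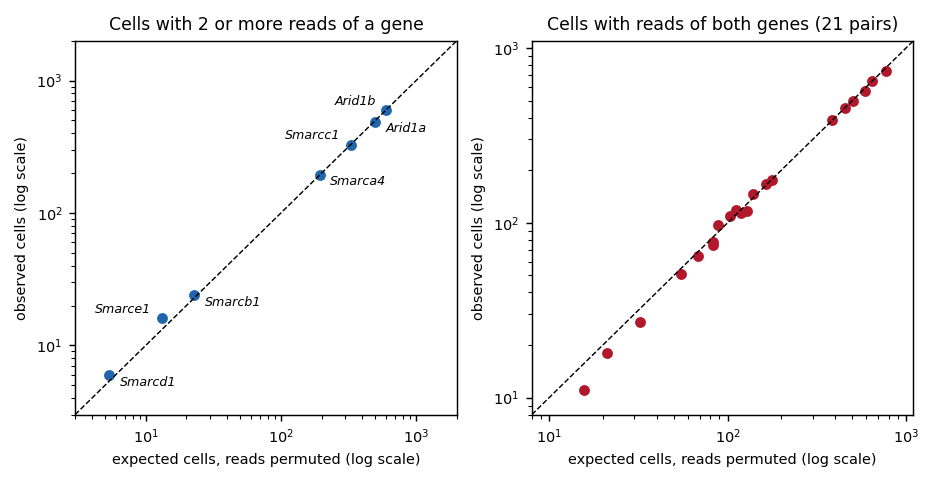
Observed against expected numbers of cells, on log scales, for cells with 2 or more reads of a BAF gene (left, 7 genes) and for cells with reads of both genes of a pair (right, 21 pairs). The dashed line marks equality, and the points on the left follow it from 6 cells for Smarcd1 to 598 for Arid1b. On the right, the pair farthest below it is Smarcd1 and Smarce1, with 11 cells.

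The mean log2 level of the 7 genes over the 16 samples was followed most closely by Enoph1, Set and Gart, genes outside the complex, with Pearson correlations of 0.920, 0.918 and 0.915. Over the 10 scGRO-seq batches alone the correlations were 0.818, 0.939 and 0.855. The samples come from 3 assays and differ in depth, so these values describe likeness over the samples and carry no p. Of the 7 genes themselves, Arid1a followed the mean most closely over the 16 samples at 0.795 and Arid1b least at 0.277. Each of the 7 is part of this mean, so its own values, with their counting error, enter its correlation. Over the 10 batches alone Smarcd1 was closest at 0.715 and Smarca4 least close at 0.139, with Arid1a at 0.550 and Arid1b at 0.479.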

How the data were processed

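Run-on reads of 82 libraries had been trimmed with cutadapt, aligned to mm10 with Bowtie2 and collapsed with UMI-tools, per the submitters' processing notes, whose versions are not given in the sources used here. The deposited files are read lists in which the authors gave each read its position, strand, cell barcode and UMI, with the mapping quality score as the only value. Reads were counted here from these lists in 59 libraries, 53 of them scGRO-seq. A read found in several libraries, identical in position, strand, barcode and UMI, was dropped from all of them (28.94% of the scGRO-seq reads). The scGRO-seq list of Exp261_c16 repeated the inAGTuC list of that name and was not used as scGRO-seq.

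Cells needed 1000 UMIs and 750 genes, and plate libraries 24 such cells. Genes were RefSeq GRCm38 spans of at least 2000 bp. The body excluded the first and last 500 bp and needed 50 reads, and the promoter needed 10. Levels were compared with limma 3.58.1 (voom, R 4.3.3) over all 16 samples at an adjusted p threshold of 0.05, with TMM factors (0.771 to 1.16, trimming 30% and 5%) computed here, and promoter against body with the sample as a term. The 3 comparisons of assays share samples. Batches were compared over plate libraries. Intervals of differences are the estimate ± 1.96 SE. Expected numbers of cells were the exact mean over random assignment of the body reads of a library to its cells, tested by sign flips over batches. Wilson intervals and limits from 3 counts cover counting error only. Scripts used Python 3.11.15, numpy 2.4.6, scipy 1.17.1, pandas 2.3.3 and matplotlib 3.10.9 and were tested on simulated data.

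The 7 genes, the list of 22 other BAF genes and the marker lists were chosen with earlier results of these data known. Named in the text are the 7 genes, the paralogs Smarca2, Smarcc2, Smarcd2, Smarcd3 and Arid2, up to 5 other genes of the list with the largest called difference per comparison, the 3 genes most correlated with the mean of the 7, and the 3 pairs with most cells in common. Other pairs, bins and batches were picked after their values were seen. Alternatives were library totals, no filter on low counts, the experiment as a random block, all deposited reads, all 14 scGRO-seq batches with cells left after the filters in place of the 10 that the study names in its plot of reads per cell, a mapping quality of at least 10, reads outside small RNA genes, promoters of 250 or 1000 bp or at any transcript start, near reads counted once, the first 10 kb, permutation within batches, the UMI minimum alone, the body from 1000 bp, and leaving out each library or batch.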

Additional observations from a re-analysis of the deposited data

Results flagged for a closer look

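Among 29 groups of 4 to 10 values tested for a value far from the rest, where chance alone flags about 1 in 20, 3 values stood out. In the inAGTuC library Exp234_c11, the antisense body level was 2.5887 for Smarca4, against a median of 0.63 in the other 3 inAGTuC libraries, and 2.4467 for Smarcc1, against 0.534. The sense body level of Arid1b in the scGRO-seq batch Exp246 was 1.8779, against a median of 1.27 in the other 9 batches, and 70.97% of its 93 cells had a read of Arid1b, the highest share of any batch.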

How the results depend on the processing

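Samples were not paired by replicate number, because these numbers were given in accession order and name samples only. Of the experiments in the labels, Exp208 alone held samples of 2 assays in the 16-sample fit, inAGTuC and scGRO-seq, so the experiment was fitted as a random block. Body level calls among the 7 genes, 1 in AGTuC against inAGTuC, became 2 with library totals and 0 with the experiment as a random block or with all scGRO-seq batches, and 0 to 2 when 1 library or batch was left out. Those in scGRO-seq against AGTuC, 2, became 4 with library totals and 1 with the random block or with the body from 1000 bp (Smarce1 lost in both), and 1 with all deposited reads, all scGRO-seq batches, a mapping quality of at least 10, or without small RNA genes, and 0 to 2 when 1 was left out. Promoter share calls, 4 and 5 with Arid1b counted, became 0 in both comparisons with all scGRO-seq batches, and 1 against inAGTuC and 3 against scGRO-seq with the 250 bp promoter. Against inAGTuC, Smarcb1 was lost with all deposited reads (adjusted p = 0.0529) and Smarcc1 and Smarce1 were gained with 1000 bp (0.0313 and 0.0246). Against scGRO-seq, Arid1a was lost with no filter (0.0580) and mapping quality (0.0811), Smarcb1 was gained with all deposited reads (0.0240), any transcript start (0.0378) and no small RNA genes (0.0485), and Smarce1 was gained with 1000 bp. The counts ran from 0 to 6 in each when 1 was left out. Calls between batches fell from 2 to 1 with library totals and without the fullest bins. For the 7 genes, calls between scGRO-seq and inAGTuC stayed at 0 under the alternatives run, and the ratio over the 21 pairs ran from 0.979 to 0.989 with a batch left out.

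Over all genes, the 4732 body calls of AGTuC against inAGTuC became 3124 with the random block, 885 without Exp125c_c02 and 2543 without Exp125c_c01. The 6728 of scGRO-seq against AGTuC became 11760 with no filter on low counts, which tested more genes, 2531 without Exp125c_c02 and 4203 without Exp125c_c01. The 5422 and 5785 promoter calls became 2955 and 1393 with all batches, 1707 and 1877 without Exp125c_c02 and 1832 and 1865 without Exp125c_c01. With no filter on low counts, the 4732 body calls of AGTuC against inAGTuC became 8203, again with more genes tested. Without inAGTuC Exp261_c16, 5 genes were called for body level and 1 for promoter share between scGRO-seq and inAGTuC, none of them among the 7.

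Differences that changed sign were small and passed no test. AGTuC minus inAGTuC body levels were 0.029 for Arid1b with library totals. They were -0.016, -0.10 and -0.081 for Smarca4, Smarcc1 and Smarcb1 with all deposited reads, and -0.0038, -0.00016 and -0.020 for Smarcb1 with all batches, mapping quality and no small RNA genes. scGRO-seq minus AGTuC was 0.20, 0.068 and 0.10 for Smarca4 with all deposited reads, mapping quality and no small RNA genes, and 0.13 for Smarcc1 with all deposited reads. scGRO-seq minus inAGTuC was 0.0087 and 0.032 for Smarcc1 with no filter and all deposited reads, -0.048 for Smarcd1 with the block, and -0.21 and -0.024 for Arid1a and Arid1b with all batches. The promoter share of inAGTuC minus scGRO-seq was -0.22 and -0.17 for Smarcc1 and Smarcd1 with all batches and 0.31 for Arid1b with 1000 bp.

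Ratios of cells with 2 or more reads crossed 1 with near reads counted once (Smarca4 0.986, Smarcc1 0.991, Smarcb1 0.925, Smarcd1 0.949, Arid1a 1.0029), in the first 10 kb (Smarca4 0.722, Smarcb1 0.815, Smarce1 0.985, Arid1b 1.205), with all deposited reads (Smarca4 0.958, Smarcc1 0.981, Smarce1 0.927, Arid1b 1.012), with the mapping quality (Smarca4 0.980, Arid1a 1.0295), within batches (Smarcc1 0.997), with the UMI minimum alone (Arid1a 1.012) and with a pool of all reads of kept cells (Arid1a 1.0006). Ratios for the 3 pairs named first were 1.346, 0.791 and 1.26 in the first 10 kb, a window with few reads. With 1 library or batch left out, signs also changed for scGRO-seq minus inAGTuC (Arid1a -0.028 to 0.55, Smarcc1 -0.16 to 0.22), inAGTuC minus scGRO-seq promoter shares (Arid1a -1.33 to 0.18, Smarcb1 -0.90 to 0.042, Smarcc1 -0.12 to 1.08), AGTuC minus inAGTuC (Arid1b -0.17 to 0.00095, Smarcb1 -0.026 to 0.20), scGRO-seq minus AGTuC (Smarca4 -0.048 to 0.038) and cells with 2 or more reads (Arid1a 0.981 to 1.009, Arid1b 0.965 to 1.0015, Smarca4 0.984 to 1.03, Smarcc1 0.988 to 1.02, Smarcd1 0.984 to 1.56). The causes were not tested. Ratios with near reads counted once set thinned cells against an expected number that still allows near reads, so they show no deficit. The pool of all reads, the removal of the fullest bins and the body from 1000 bp were chosen after seeing the data. Smarcd1, with 53 inAGTuC and 140 scGRO-seq body reads, is limited most by depth.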
